A study of Mus musculus with 16 samples.

Results

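Neurexins (Nrxn), neuroligins (Nlgn) and the leucine-rich repeat transmembrane proteins (Lrrtm) are cell adhesion molecules that hold the synapse together. Neurexins sit in the presynaptic membrane, and neuroligins and Lrrtm proteins sit opposite them in the postsynaptic membrane and bind them across the cleft. Nlgn1 is found mainly at excitatory synapses, Nlgn2 at inhibitory synapses and Nlgn3 at both, while the Lrrtm proteins belong to excitatory synapses. N6-methyladenosine (m6A) is a methyl mark on adenosines of mRNA. It is deposited mostly in the sequence RRACH (R is A or G, H is A, C or U) and is typically dense near stop codons and in long exons.

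The 9 genes described are Nrxn2, Nrxn3, Nlgn1, Nlgn2, Nlgn3, Lrrtm1, Lrrtm2, Lrrtm3 and Lrrtm4, taken as a listed family of binding partners, and their m6A peaks are those that lie on the same strand as their GENCODE M39 exons. MeRIP-seq, in which fragmented RNA is pulled down with an m6A antibody, was made from cortical tissue around the infarct of male C57BL/6J mice aged 6 to 8 weeks. Mice had either a sham operation (Sham) or a 2 h block of the middle cerebral artery (MCAO), after which blood flow was restored for 24, 6 or 0 h (named MCAO/R-24 h, MCAO/R-6 h or MCAO/R-0 h). Per the study's methods, mice of all groups were anaesthetized with Avertin before surgery. There were 6 mice per surgery group, and whether each library came from a separate animal is not given in the sources used here, so the spread between the 2 libraries of a group may be technical. Each group had 2 pull-down (IP) libraries with 1 peak list each, and the 8 input libraries were not analysed here. The lists of all MCAO/R groups are called reperfusion lists below. They include those of MCAO/R-0 h, which had 0 h of reperfusion. The 8 lists held 18775 to 24078 peaks, without read counts, so depth is unknown, a peak is either listed or not, and RNA level and degree of methylation cannot be told apart. The shortest list was Sham replicate 1. Tissue markers can be judged only by whether their mRNA has a peak: of the neuronal markers Map2 had peaks in 7 lists, Rbfox3 in 5 and Slc17a7 in 1, and Snap25, Syt1 and Camk2a had none. Of the astrocyte markers Aqp4 had peaks in 8 lists, Slc1a3 in 2 and Gfap in none, and of the microglial ones Cx3cr1 and P2ry12 had peaks in 8 and Csf1r in 7. The oligodendrocyte markers Mog and Mbp had peaks in 6 and 4 lists, and the endothelial markers Cldn5 and Pecam1 in 7 and 5. A marker without a peak may still be expressed.

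Of 169564 peaks in all, 369 overlapped an exon of one of the 9 genes, and 368 were counted for them because 1 Nlgn3 peak in MCAO/R-0 h replicate 1 overlapped the neighbouring gene Med12 more. Peaks of different lists that share at least 1 exonic base were joined into regions, numbered from 5′ to 3′ within each gene, which gave 76 regions among 52776 in all. To show the sequence under the marks, the RRACH site nearest to the middle of the peaks is given for 1 region of each gene, the one found in the most lists and, where several were found in all 8, the one of these with the highest mean score percentile (explained further on), with the RRACH letters in capitals and 10 bases on either side. The sequences were read 5′ to 3′ on the gene's strand from GRCm39 (T stands for U), Nrxn2 is not shown because it has no region in 6 or more lists, and no sequence is printed for Lrrtm2. A match is a description and not a mapped methylated base.
Nrxn3 region 12, chr12:90299391-90299415, plus strand: cttggcccgaAGACAgaaaattctc
Nlgn1 region 10, chr3:25487652-25487676, minus strand: tacatatcaaGAACTttgggggttt
Nlgn2 region 5, chr11:69716258-69716282, minus strand: gtgttggggcGGACCctgctgaggc
Nlgn3 region 9, chrX:100365306-100365330, plus strand: ccctcatcttGGACTggtggctagg
Lrrtm1 region 3, chr6:77221915-77221939, plus strand: caggcagctcAGACAgtgctttgtc
Lrrtm3 region 2, chr10:63924929-63924953, minus strand: cagcctccaaAAACTtaagtataat
Lrrtm4 region 3, chr6:79999125-79999149, plus strand: aagactgccgGAACCttgactttct
The adenosine in the middle of these sites lies at 221 nt (Nrxn3), 140 nt (Nlgn1), -239 nt (Nlgn2), 1452 nt (Nlgn3), -184 nt (Lrrtm1), -1522 nt (Lrrtm3) and -1226 nt (Lrrtm4) from the first base of the stop codon on the transcript with the longest coding sequence, where negative values lie before the stop codon. A peak covered the Nlgn1 and Nlgn3 sites in all 8 lists, the Nrxn3, Lrrtm3 and Lrrtm4 sites in 7, the Nlgn2 site in 5 and the Lrrtm1 site in 4.

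RRACH density was compared between member peaks and all peaks, without a test. Member peaks held 17.6 ± 0.876 sites per kb of exonic sequence (SD over 8 lists) and all peaks 18.5 ± 0.161, searching the transcript strand only. At least 1 site was present in 296 of 368 member peaks (80.4%) and in 80.8% of all peaks. The stricter motif GGACU, which RRACH includes, was present at 1.2 ± 0.321 per kb in member peaks and 1.5 ± 0.033 in all peaks. Each of the 21 regions found in all 8 lists held between 3 and 23 RRACH sites and 12 of them held GGACU, while 11 of the 27 regions found in a single list held an RRACH site. The regions found in all 8 lists were also longer, with 250 to 1450 exonic nt over all lists against 16 to 175 nt for those in a single list, and the part of length in these counts was not tested.

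Marks on these genes recurred from list to list. Of the 76 regions, 21 (27.6%) were found in all 8 lists and 27 (35.5%) in only 1, against 8.97% and 52.6% of all regions. Between the 2 lists of a group, 50.9% to 65.1% of the member regions in either list were in both, against 36.1% to 39% of all regions. Member peaks also scored high: the score is given by the peak caller on a scale the sources do not define, so it is used only as a percentile, the share of peaks of the same list that score lower. The median percentile of member peaks was 72.6 ± 4.71 (SD over 8 lists), from 68.5 in Sham replicate 2 to 83.4 in MCAO/R-24 h replicate 2, where the median over all peaks is 50 by construction. Exonic length moves with the score (Spearman's rho of 0.657 to 0.686 across the peaks of a list, a description over peaks that share a library), and the median exonic length in a list was 108 to 175 nt for member peaks and 100 to 125 nt for all peaks. The part of length in the rank of member peaks was not tested.

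**Figure D1:**
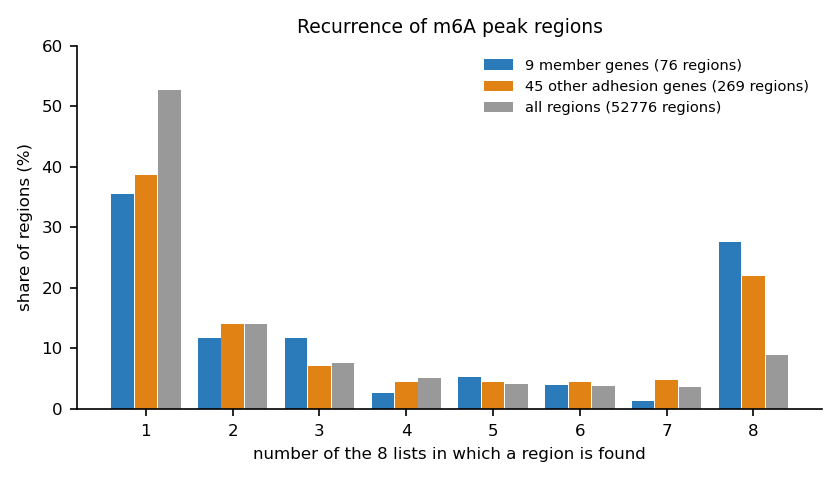
Share of regions (y axis, %) by the number of the 8 lists in which they were found (x axis), for the 9 genes, for 45 other trans-synaptic adhesion genes and for all regions. At 8 lists the bars stand at 27.6%, 21.9% and 8.97%.

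Along the transcripts, 47.1% ± 6.37 (SD, n = 8 lists) of the member peaks had their middle in the coding sequence (CDS), 37.9% ± 5.47 in the 3′ UTR and 13.8% ± 2.36 in the 5′ UTR, against 53.1%, 33.3% and 5.23% of all peaks. The 3 families are described by their pooled peaks, without a test, since peaks of 1 region recur between lists. Of 49 neurexin peaks 16 lay in the 5′ UTR, 16 in the CDS and 15 in the 3′ UTR. Of 149 neuroligin peaks 74 lay in the 3′ UTR (49.7%), 61 in the CDS and 13 in the 5′ UTR, and of 170 Lrrtm peaks 97 lay in the CDS (57.1%), 50 in the 3′ UTR and 22 in the 5′ UTR. Within 200 nt of the stop codon lay 16.1% ± 3.88 of member peaks and 20.4% ± 0.399 of all peaks. In Sham the member CDS share was 54% and 56.8% in the 2 lists, and in the reperfusion lists it ran from 38.6% to 49%. The 3′ UTR share was 31.8% and 32% in Sham and 34% to 45.5% in the reperfusion lists. Over all peaks the CDS share was 54.4% and 55% in Sham and 50.7% to 55.2% in the reperfusion lists, which overlap. The 3′ UTR share of all peaks overlapped too, with 32.1% and 33.8% in Sham and 32% to 34.9% in the reperfusion lists. The member shares count peaks, and a single Lrrtm1 region, described further on, gave 5 and 4 of the Sham member peaks.

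**Figure D2:**
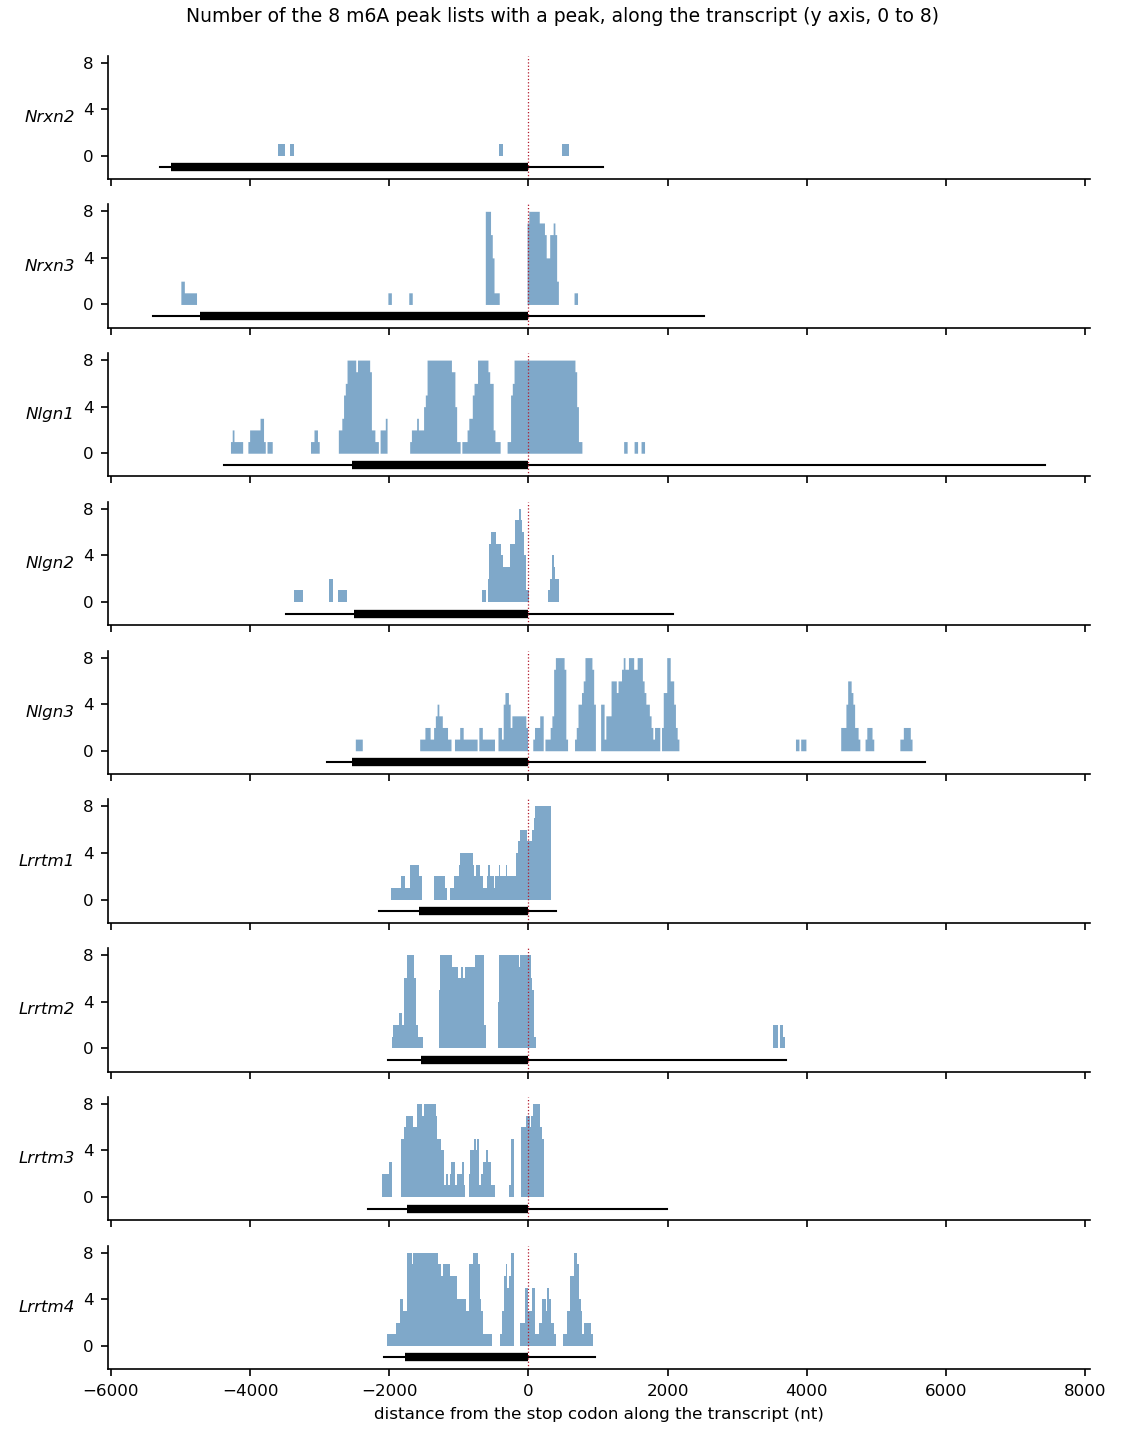
Number of lists with a peak (y axis, 0 to 8) along the longest coding transcript of each gene, by distance from the stop codon (x axis, nt). The thick bar is the CDS, the thin line the UTRs, and peaks in exons of other transcripts are not drawn. Nlgn1 is marked in all 8 lists around its stop codon, and Nlgn3 reaches 8 lists at several places in its 3′ UTR.

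Of the neurexins, peaks covered on average 0.881% of the exonic bases of the protein-coding transcripts of Nrxn2 and 7.99% of those of Nrxn3. Low coverage was not particular to this presynaptic side, since the postsynaptic Nlgn2 had 7.77%. The remaining genes had 18.7% (Nlgn1) to 33.1% (Lrrtm1). Neurexin genes are known to give a long form and, from a start inside the gene, a short form. Nrxn2 (chr19:6468761-6594199, plus strand) had 0 and 1 peaks in the Sham lists, 3 and 0 at MCAO/R-0 h, 2 and 1 at MCAO/R-6 h and 1 and 0 at MCAO/R-24 h. No Nrxn2 region was found in all 8 lists, and its most recurrent one, region 4, was found in 3. That region (chr19:6548178-6548352) lies mainly in the 5′ UTR of annotated short transcripts that start inside the gene, holds no RRACH, and scored at percentiles 28.8 to 61.6. Nrxn3 (chr12:88689646-90301709, plus strand) had 7 and 5 peaks in Sham, 5 and 6 at MCAO/R-0 h, 6 and 4 at MCAO/R-6 h and 3 and 5 at MCAO/R-24 h, so all groups overlapped. It too was marked in the 5′ UTR of short transcripts that start inside the gene in 5 lists, at region 7 (chr12:89779553-89779727). Its 2 regions in all 8 lists lie at the 3′ end. Region 11 (chr12:90298280-90298754) lies upstream of the stop codon, in sequence that is coding in at least 1 annotated transcript. Its middle is exonic in 3 annotated transcripts, and not in the one with the longest coding sequence. Region 12 (chr12:90299155-90299604) lies in the 3′ UTR, with its peaks centred 198 nt after the stop codon.

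Nrxn3 region 11 was the member region whose rank differed most between groups. Its percentile was 82.7 and 92.7 in Sham, 99.3 and 99.2 at MCAO/R-0 h, 86.8 and 76.1 at MCAO/R-6 h and 88.7 and 86.6 at MCAO/R-24 h. Both MCAO/R-0 h lists stood above the other 6, and the Sham lists overlapped those of 6 h and 24 h. How many of all regions show such an order of lists was not counted. In Sham it was listed as 2 peaks, and as 1 in the other lists, with 375 and 400 exonic nt at MCAO/R-0 h against 150 to 350 nt elsewhere. Region 12 next to it scored from 91 to 99.1 with no such order. Ranks of the 4735 regions found in all 8 lists, 21 of them in member genes, were turned into normal scores within each list and compared among the 4 groups with limma. Region 11 was 1.24 ± 0.29 normal-score units higher at MCAO/R-0 h than in Sham (SE, 2 lists each). Neither this contrast (limma adjusted p = 0.559) nor the limma F-test (adjusted p = 0.485) passed the threshold.

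No region, member or not, passed an adjusted p of 0.05 in the limma F-test (0 of 4735, 0%), nor in the limma contrast with Sham at any of the 3 times (0% each). At an unadjusted p under 0.05 the F-test held 397 regions (8.38%), of which region 11 was the only one of the 21 member regions. An exact permutation test divided the libraries into 4 pairs in every possible way. It gave 320 regions, 1 of them in a member, at an unadjusted p under 0.05, and 0 after adjustment. Its smallest possible p is 0.00952, so a region passes adjustment over 4735 only if many reach that value together. That 0 therefore adds nothing to the limma result. For 4735 regions, data were simulated with independent normal noise of each region's spread, and shifts were added to both MCAO/R-24 h lists only. The limma F-test called 42 of 100 shifts of 1.5 normal-score units and 89 of 100 shifts of 3. Other patterns, and noise shared between lists, were not simulated. The unadjusted limma contrasts held 4 member regions at MCAO/R-0 h (background 6.65%), 1 at MCAO/R-6 h (9.33%) and 0 at MCAO/R-24 h (8.07%). The 4 were Nrxn3 region 11, Lrrtm1 region 4 (0.63 ± 0.27, higher), Lrrtm4 region 4 (0.72 ± 0.29, higher) and Nlgn3 region 8 (-0.73 ± 0.28, lower), with limma adjusted p from 0.559 to 0.744. Over the 21 member regions the median difference from Sham was 0.23, 0.20 and 0.21 normal-score units at 0, 6 and 24 h, beside 0.09, 0.11 and 0.09 over all regions tested.

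**Figure D3:**
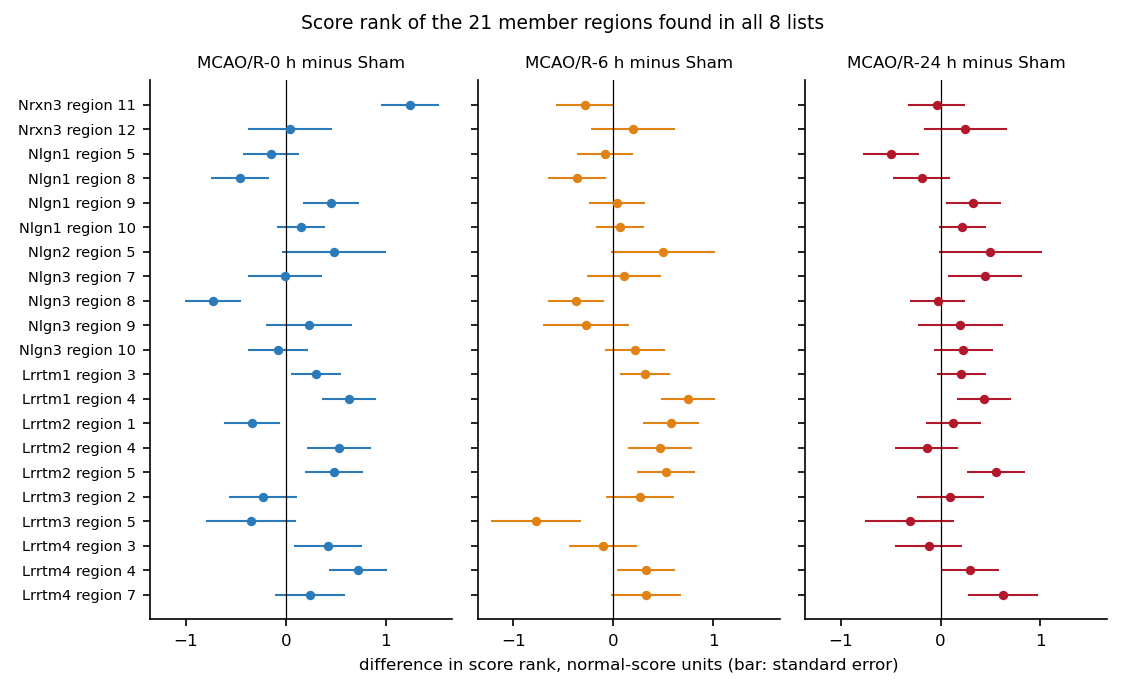
Difference from Sham in score rank (x axis, normal-score units, bars are limma standard errors) for the 21 member regions found in all 8 lists (y axis), at each reperfusion time. Nrxn3 region 11 at MCAO/R-0 h stands furthest from 0, at 1.24.

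Nlgn1, the neuroligin of excitatory synapses (chr3:25480379-26386609, minus strand), carried the highest-scoring mark of the 9 genes. It had 6 and 6 peaks in Sham, 8 and 6 at MCAO/R-0 h, 5 and 5 at MCAO/R-6 h and 5 and 9 at MCAO/R-24 h. Region 10 (chr3:25487054-25488128) spans the stop codon and the start of the 3′ UTR and was listed as a single peak of 875 to 1000 exonic nt in every list, at percentiles of 99.9 to 100 after rounding. The bases shared by all 8 lists ran over 875 nt (chr3:25487154-25488028). Region 5 lies over the start codon (91.1 to 98.7), and regions 8 (96.7 to 99.6) and 9 (96 to 99.4) lie in the CDS, the first mainly in exon 7 and the other in the last of 8 exons. The 4 regions were in all 8 lists, and none of them stood below a percentile of 91.1 in any list.

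Beside them, 2 weaker Nlgn1 regions came and went. Region 6 (chr3:26187307-26187506, CDS of exon 3, 116 nt of it exonic) was in both Sham lists at 74.7 and 77.5, absent from all lists of MCAO/R-0 h or MCAO/R-6 h, and listed again in replicate 2 of MCAO/R-24 h at 49.1. It lies next to region 5, which was 400 and 475 nt long in Sham and 350 to 575 nt in the other lists. Region 2 in the 5′ UTR was in both MCAO/R-24 h lists (11.8 and 47.4), in neither Sham list, and in MCAO/R-0 h replicate 2 (49). The RRACH site nearest the middle of region 6 is shown, chosen after its values were seen.
Nlgn1 region 6, chr3:26187429-26187453, minus strand: catacgtccaAGACCagagtgaaga

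Nlgn2, the neuroligin of inhibitory synapses (chr11:69713948-69728613, minus strand), was marked least of the 3, with 3 and 3 peaks in Sham, 4 and 3 at MCAO/R-0 h, 3 and 3 at MCAO/R-6 h and 2 and 2 at MCAO/R-24 h. The MCAO/R-24 h lists were the lowest and differed from the next by 1 peak. Its region in all 8 lists, region 5 (chr11:69716023-69716622), lies in the CDS with its peaks centred at -241 nt and varied widely. Its percentiles were 76 and 55.8 in Sham, 64.6 and 92.5 at MCAO/R-0 h, 88.6 and 74.4 at MCAO/R-6 h and 94.4 and 60.2 at MCAO/R-24 h, so that replicates differed as much as groups. Only 25 nt of it were covered in every list. Region 2 (chr11:69727951-69728000, 5′ UTR of exon 1) was in both Sham lists, at 56.5 and 38, and in none of the 6 reperfusion lists. It is 50 nt long and holds no RRACH. Region 6 (chr11:69715598-69715747, 3′ UTR at 359 nt) was in neither Sham list, in both lists of MCAO/R-0 h (56.1 and 23.6) and MCAO/R-6 h (57 and 0.776), and in replicate 1 of MCAO/R-24 h (42.2). With the same number of top-scoring peaks taken from every list, region 6 was no longer gained at either time.

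Nlgn3 (chrX:100342750-100369570, plus strand) had the most peaks of the 9, with 8 and 7 peaks in Sham, 10 and 10 at MCAO/R-0 h, 11 and 9 at MCAO/R-6 h and 11 and 10 at MCAO/R-24 h. All 6 reperfusion lists stood above both Sham lists, as they did for 2.03% of the 8460 genes with a peak in at least 4 lists. Since the Sham lists were among the shorter ones, the same counts per 10000 peaks of the list overlapped, with 4.26 and 3.47 in Sham and 3.88 to 5.77 in the others. Its exons covered by a peak ran from 925 to 2400 nt (Sham 1700 and 925 nt). Regions 7 to 10 form a chain in the 3′ UTR, centred 436, 842.5, 1430 and 2017 nt after the stop codon, and all 4 were in every list. Region 9 was the broadest, up to 750 nt in 1 list, and was listed as 1 to 4 peaks. Region 8 scored 93.9 and 92.5 in Sham, 80.6 and 74.7 at MCAO/R-0 h, 89.5 and 84.1 at MCAO/R-6 h and 88.4 and 95.8 at MCAO/R-24 h, so the MCAO/R-0 h lists were the lowest. This difference did not pass adjustment (limma, above), and the share of all regions ordered in this way was not counted.

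Far downstream, Nlgn3 region 13 (chrX:100368346-100368620, 4611 nt after the stop codon in a 3′ UTR that runs 5704 nt) was the only member region found in all 6 lists before 24 h and in neither list of MCAO/R-24 h. Its percentiles were 54.9 and 45.5 in Sham, 61 and 39.2 at MCAO/R-0 h and 57.2 and 28.5 at MCAO/R-6 h. Its neighbours downstream, regions 14 and 15, were each listed at MCAO/R-24 h in a single list (51 and 13.1), and the stronger regions 7 to 10 stood between 80.4 and 96 at that time. Region 6, 142 nt after the stop codon, was in both MCAO/R-0 h lists (75.3 and 67.1) and in neither Sham list, and in MCAO/R-24 h replicate 1 (55.2). RRACH sites of both regions are shown, chosen after their values were seen, and the GGACT of region 13 was covered in 2 of its 6 lists.
Nlgn3 region 6, chrX:100363998-100364022, plus strand: agacagatgtGGACAtgcacccgca
Nlgn3 region 13, chrX:100368390-100368414, plus strand: ttcagtctcaGGACTacctgtttgg

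Lrrtm1 (chr6:77218820-77235200, plus strand) has a short mRNA with its whole coding sequence in 1 exon. Peaks covered 33.1% of the exonic bases of its protein-coding transcripts on average (14.7% to 55.8% in a list). The gene was listed as fewer peaks in the reperfusion lists than in Sham, those of MCAO/R-0 h included. It had 7 and 7 peaks in Sham, 4 and 4 at MCAO/R-0 h, 2 and 4 at MCAO/R-6 h and 3 and 4 at MCAO/R-24 h. All 6 reperfusion lists stood below both Sham lists, as for 0.957% of genes. Per 10000 peaks of the list the groups were also apart (3.73 and 3.47 in Sham, 0.901 to 2.02 in the reperfusion lists), as for 5.25% of genes, while 2.33% of genes lay higher on that scale. The exact permutation test over the 4 groups gave p = 0.143 (adjusted p = 1). The marked length did not follow the count: with the exon of region 4 included, 1100 and 925 exonic nt were covered in Sham and 725 to 1750 nt in the reperfusion lists, which overlap. Most of the difference lay in region 3 (chr6:77220973-77222422, CDS and 3′ UTR), listed as 5 and 4 peaks in Sham and as 1 or 2 in each reperfusion list, over 675 and 475 nt in Sham and 375 to 1225 nt in the others. Its best percentile was 92.7 and 91.2 in Sham and 93 to 96.5 in the 6 other lists.

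Peak borders in these lists fall at fixed steps wider than 7 nt, so a shared end does not place the end of a mark to the base. The last peak of region 3 ended at the same base, 77222422, in all 8 lists. That is 7 nt before the end of an exon (77222429) in 3 of the 8 annotated transcripts. These 3 are annotated as targets of nonsense-mediated decay and join that exon, across an intron of 11865 nt, to an exon starting at 77234295. Region 4 (chr6:77234392-77234766) lies in that downstream exon and was also in all 8 lists. It scored 85.7 and 78.2 in Sham, 94 and 93.9 at MCAO/R-0 h, 96.1 and 94.4 at MCAO/R-6 h and 94 and 87.9 at MCAO/R-24 h. Every reperfusion list stood above both Sham lists, and the share of all regions with this order was not counted. The exonic length of region 4 was 275 and 75 nt in Sham and 325 to 375 nt in the others. The limma difference from Sham was 0.63 ± 0.27, 0.75 ± 0.27 and 0.44 ± 0.27 normal-score units at 0, 6 and 24 h (SE, adjusted p = 0.744, 0.45 and 0.687). Region 2 in the CDS, at low percentiles of 19.1 and 16.3 in Sham, was in neither list of MCAO/R-6 h or MCAO/R-24 h.

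Lrrtm2 (chr18:35342056-35348120, minus strand) had 3 and 5 peaks in Sham, 3 and 3 at MCAO/R-0 h, 6 and 5 at MCAO/R-6 h and 6 and 4 at MCAO/R-24 h. Regions 4 and 5, both mainly in the CDS, were in all 8 lists at percentiles of 88.5 to 98.8 and 92.4 to 99.2. Region 1, in the 5′ UTR of exon 1, was in all 8 lists too and varied more (53.4 to 87.9). It was highest at MCAO/R-6 h (84.4 and 87.9) and lowest at MCAO/R-0 h (60.1 and 53.4), with 66.5 and 72.5 in Sham and 63.6 and 82.3 at MCAO/R-24 h. The limma F-test gave an adjusted p of 0.632, and the share of all regions with such an order was not counted.

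Lrrtm3 (chr10:63763854-63926056, minus strand) had 4 and 8 peaks in Sham, 6 and 4 at MCAO/R-0 h, 7 and 4 at MCAO/R-6 h and 5 and 5 at MCAO/R-24 h, the Sham lists spanning all the others. Region 2, over the start codon and into the CDS, was in all 8 lists (85.2 to 97.6), as was region 5 at the stop codon in the last exon. Region 5 was at 93.1 and 95.5 in Sham, 82.1 and 93.9 at MCAO/R-0 h, 55 and 93.4 at MCAO/R-6 h and 88.3 and 91.6 at MCAO/R-24 h. The value of 55, in MCAO/R-6 h replicate 1, stands apart from the other 7, and its peak there was 100 nt long against 250 to 325 nt elsewhere.

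Lrrtm4 (chr6:79995860-80787124, plus strand) had 6 and 8 peaks in Sham, 6 and 8 at MCAO/R-0 h, 6 and 5 at MCAO/R-6 h and 10 and 8 at MCAO/R-24 h. Region 3 in the CDS was covered over 800 to 1175 nt in a list, at percentiles of 89.8 to 99.3. Region 4, which spans the stop codon of the short transcripts, scored 59.9 and 78.2 in Sham, 87.6 and 90.7 at MCAO/R-0 h, 76.7 and 83 at MCAO/R-6 h and 72.9 and 84.7 at MCAO/R-24 h. Region 7, 672 nt after the stop codon of the long transcripts, had the lowest mean percentile of the 21 recurrent regions, 62.6, with a range of 46.9 to 85. Region 1 in the 5′ UTR was in both Sham lists (19.3 and 19.8), in neither list of MCAO/R-6 h and in 1 list each of MCAO/R-0 h (65.7) and MCAO/R-24 h (23.5).

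**Figure D4:**
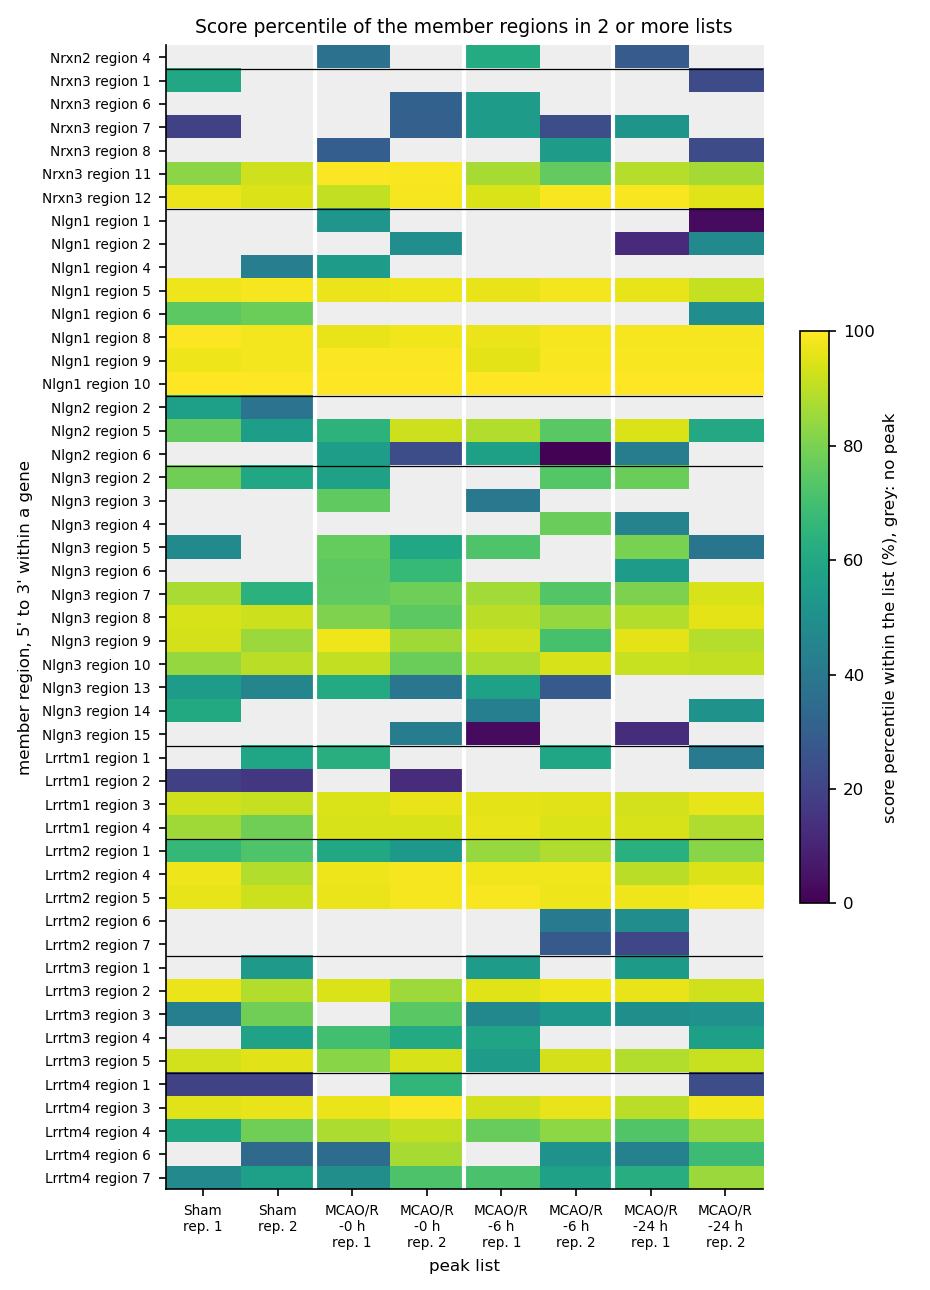
Score percentile (colour, %) of the member regions found in 2 or more lists (y axis, ordered 5′ to 3′ within each gene) in each of the 8 lists (x axis), with grey where no peak was listed. Rows without grey are the regions in all 8 lists, such as Nlgn1 region 10, and most rows with grey hold lower percentiles.

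Counted together, few member regions were gained (in both lists of a time and neither Sham list) or lost (the reverse). At MCAO/R-0 h 2 of 64 were gained (3.12%) and 2 lost (3.12%), where 3.84% and 1.87% of all regions were. At MCAO/R-6 h 1 of 61 was gained (1.64%) and 4 lost (6.56%), against 4.94% and 2.03% of all. At MCAO/R-24 h 1 of 53 was gained (1.89%) and 3 lost (5.66%), against 3.79% and 2.76%. Among all regions gains outnumbered losses at each time, and among members the losses were at least as many as the gains, but these are counts of 1 to 4 that share the same 2 Sham lists. With 2 lists against 2, an exact permutation test cannot give a p below 0.333. When only the higher-scoring 50% of each list was kept, 1 region was lost at each of 0, 6 and 24 h and 2, 0 and 0 were gained. Of the calls from the full lists, only Nlgn1 region 6 (lost at 0 and 6 h) and Nlgn3 region 6 (gained at 0 h) held then. The loss at 24 h and the other gain at 0 h were new calls. Nlgn1 region 6 and Nlgn3 region 6 remained called under all 5 alternative ways of filtering and joining peaks, this filter included. The calls of Nlgn2 region 6 held under 3 of the 5, and all remaining calls under 4, failing only this filter.

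The number of peaks per gene was tested among the 4 groups. The exact permutation test over every division of the 8 lists into 4 pairs (one-sided, smallest possible p = 0.00952) gave p from 0.143 (Nlgn2, Nlgn3 and Lrrtm1) to 1 (Lrrtm3), with adjusted p = 1 for all 9. Of all 8460 genes 0 passed adjustment by this exact permutation test and 102 (1.21%) had an unadjusted p under 0.05, none of them a member. At the smallest possible p a gene passes adjustment over 8460 genes only if many reach it together. The 0 therefore cannot show that peak numbers did not differ. By family, the neurexins had 6.5 ± 0.707, 7 ± 1.41, 6.5 ± 2.12 and 4.5 ± 0.707 peaks per list in Sham and at 0, 6 and 24 h (SD, n = 2 lists). The neuroligins had 16.5 ± 0.707, 20.5 ± 2.12, 18 ± 1.41 and 19.5 ± 2.12, and the Lrrtm genes 24 ± 5.66, 19 ± 0, 19.5 ± 2.12 and 22.5 ± 2.12.

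**Figure D5:**
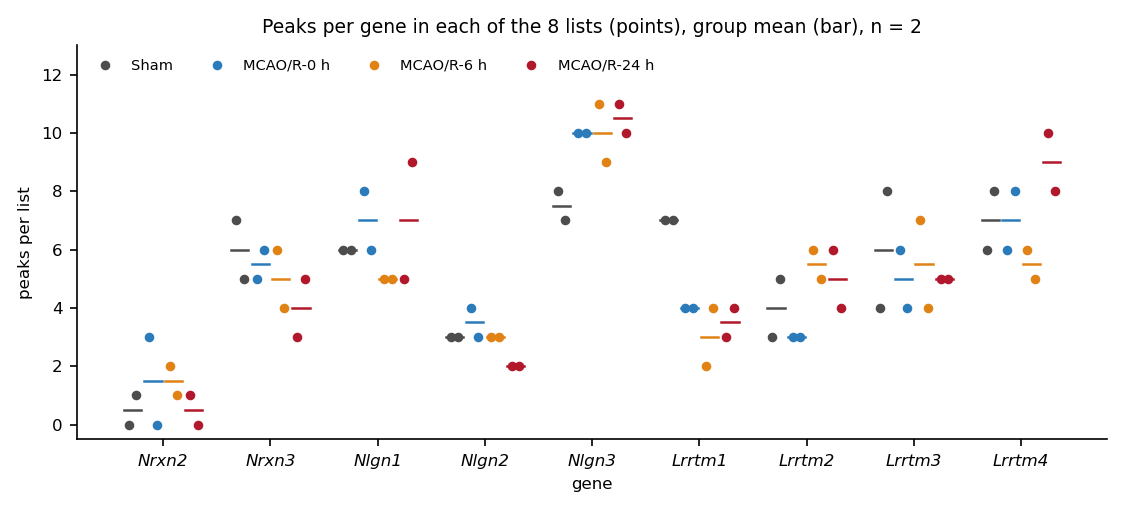
Peaks per list (y axis) of each gene (x axis), 1 point per list and a bar at the mean of the 2 lists of a group. Lrrtm1 lies at 7 in both Sham lists and between 2 and 4 in the MCAO/R lists, and Nlgn3 at 7 and 8 in Sham and between 9 and 11 in the MCAO/R lists.

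Other adhesion genes of the synapse were set beside them: 45 genes including the receptor phosphatases Ptprd, Ptprf and Ptprs, the Slitrk, Lrrc4, Flrt, teneurin (Tenm), latrophilin (Adgrl), cerebellin (Cbln), Mdga, Cadm and Lrfn families. Of these, 31 had a peak in all 8 lists, 3 had none in any, and 29 had a region found in all 8 lists. Of their 269 regions, 59 (21.9%) were in all 8 lists. At MCAO/R-24 h 7 of 194 regions were gained (3.61%) and 2 lost (1.03%), at MCAO/R-6 h 10 and 1 of 218, and at MCAO/R-0 h 10 and 1 of 207. The highest-ranking at MCAO/R-24 h were lost regions in Tenm2, a teneurin (65.5 and 64.1 in the Sham lists), and Cadm2 (68.2 and 60.8), and gained ones in Lrrc4b (61.9 and 66 in the MCAO/R-24 h lists), Lrfn5 (56.7 and 56.1) and Nxph3, a secreted neurexin ligand (33.6 and 68.8). The most regions in all 8 lists, 4, were in Mdga2, which binds neuroligins, and 8 genes had 3 each, among them Ptprd and Lrrc4c.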

How the data were processed

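Per the study's methods and the labels, the authors trimmed reads with Trim Galore, aligned them to GRCm39 with HISAT2, used SAMtools to keep reads with a single placement, and ran exomePeak2 to call m6A peaks (p-value cutoff 0.05, log2 fold change cutoff 0.5). Its version and any pooling of replicates are not given in the sources used here. RNA was fragmented to about 100 nt in the methods and 200 nt in the labels. The deposited value of each peak is a score of undefined scale. Peaks were assigned to GENCODE M39 genes by exonic overlap on the strand and merged into regions where they shared 1 or more exonic bases. Ranks were compared with limma 3.58.1 (R 4.3.3) and peak numbers by exact permutation, with Benjamini-Hochberg adjustment over all regions or genes, in Python 3.11.15 (numpy 2.4.6, scipy 1.17.1). Scripts were tested on simulated data.

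The 9 genes and the lists were chosen with earlier results of these data known. Named regions are those in all 8 lists, those gained or lost, and otherwise the most recurrent. Other adhesion genes are named when a region was gained or lost at MCAO/R-24 h (the 5 highest by the lower percentile) or for the most regions in all 8 lists (of 8 genes tied after the first, 2 are named). The comparison of Sham with all reperfusion lists, the end of the Lrrtm1 peaks and the sequences of gained or lost regions were added after the values were seen. Alternatives were other score filters, exon sets, ways of joining, scales, tests, windows and motifs, and leaving out each library. A gene of the marker list is not reported here.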

Additional observations from a re-analysis of the deposited data

How the results depend on the processing

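Of 81 values from other settings 65 stayed within 1.5 times the count or 1 SD of the main one, and 16 moved. With the higher-scoring 50% of each list, losses at MCAO/R-0 h, 6 h and 24 h were 1 each and gains at 6 h and 24 h were 0. None of the calls made at 24 h with the full lists held under this filter, and the loss there was a new call. With the same number of peaks per list, gains at MCAO/R-0 h were 1 and at 6 h 0. Genes with an unadjusted p under 0.05 in the peak-number test were 15 with the replicate block, 433 per 10000 peaks and 47 in the higher-scoring 50%, none a member. With the block the smallest possible p of this exact permutation test is 0.0417, so only genes at that value are counted. The replicate numbers share no origin in the labels, and replicate differences correlated between groups by only 0.04 to 0.08. A shared batch was not tested, so the block stands as an alternative setting and not as a known pairing of animals. With it, the limma F-test held 476 regions at an unadjusted p under 0.05, with 254 on log2 scores and 668 for regions in at least 6 lists, of which 1 was in a member each time. Stop codon windows of 400 and 100 nt held 29.8% and 7.31% of the member peaks placed on the longest coding transcript. Member peaks in regions of all 8 lists had a median percentile of 89, and GGACU came to 1.2 per kb.

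Leaving out each library in turn leaves 1 list in a group, so that gains and losses rest on 1 list against 2. Gains then ran from 3 to 12 at MCAO/R-0 h, 1 to 11 at 6 h and 2 to 8 at 24 h, and losses from 3 to 7, 4 to 8 and 4 to 7. The highest gains came without a list of the time itself (12 without MCAO/R-0 h replicate 2, 11 without MCAO/R-6 h replicate 2, 8 without MCAO/R-24 h replicate 2). The most losses came without Sham replicate 1 or 2 at 0 h (7 each) and 6 h (8 each), and without Sham replicate 1 or MCAO/R-24 h replicate 2 at 24 h (7 each). Genes with unadjusted p under 0.05 ran from 145 to 186, and members among them from 0 to 1 (Nlgn2, without MCAO/R-0 h replicate 2). In limma 0 to 1 regions passed adjustment (1 without MCAO/R-24 h replicate 2), none of them a member, and 1 to 2 member regions had an unadjusted p under 0.05, Nrxn3 region 11 in every case. The limits are 2 lists per group, no read counts, no input, and a peak that is only listed or not.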
